A study of Mus musculus with 12 samples.

Results

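Border-associated macrophages are resident macrophages of the membranes, perivascular spaces and choroid plexus at the surface of the brain, and 10 genes that are widely used to recognise them were followed here. The genes were Mrc1, Cd163, Lyve1, Siglec1, Folr2, Pf4, Clec4n, Cbr2, F13a1 and Ms4a7, picked by symbol from the table of raw counts. No cut on their measured values was applied, but the list was chosen with earlier results of these data known. All 10 were among the 47747 symbols of that table, and all 10 were among the 18593 genes that passed the filter on low counts and were tested. The meninges, the membranes that wrap the brain, had been collected from 12 C57BL/6 mice, and each mouse gave 1 total RNA library. In the DSS group, 6 mice had drunk water with 2% dextran sulfate sodium, a chemical irritant of the gut lining that is given to model colitis, for 5 days and plain water afterwards, and they were culled after 6 days. The Control group had 6 mice of the same strain whose treatment label is Control. The labels give no sex, age or genetic change for either group, and the comparison asks how the meninges differ between mice with and without this gut injury. A source field of the labels reads Colon, whereas the sample titles and the extraction protocol name the meninges. The fibroblast genes Col1a1 and Dcn had means of 5657 and 818 CPM (the count of a gene after scaling for library size) in controls, while the epithelial genes Epcam and Vil1 had 0.786 and 0.617 CPM, and Cdx2, a transcription factor gene of the gut epithelium, had 0 counts in every library.

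As background, border-associated macrophages are largely seeded before birth, persist at the brain's borders and sample the surrounding fluid through a dense set of endocytic receptors. They share the colony-stimulating factor 1 receptor and much of their general programme with microglia and other macrophages, but carry the mannose receptor and the scavenger receptors named above, which microglia hardly express. None of the 10 genes is exclusive to these cells: Lyve1 is also a gene of lymphatic endothelium, Pf4 of megakaryocytes and platelets, and Siglec1, Clec4n, F13a1 and Ms4a7 of some monocytes and of macrophages elsewhere. In RNA from whole tissue, fewer cells of a type and less RNA per cell cannot be told apart, and the same holds for more cells and more RNA.

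Sequence was available from the RefSeq tables for build GRCm38.p6, in which 7 of the 10 genes had a promoter window, and not for Siglec1, Clec4n and Lyve1. Mrc1 also hosts a microRNA gene, Mir511, in an intron on the same strand. Its mature arm mmu-miR-511-3p lies at chr2:14261051-14261072 (+) and is shown because any read from it also falls inside Mrc1; capitals mark the seed, bases 2 to 8.
mmu-miR-511-3p: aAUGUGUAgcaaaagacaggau
Mir511 itself had 1 to 13 counts per library and Mrc1 had 2001 to 9308. The promoter windows of Mrc1, F13a1 and Pf4, whose levels across mice are compared below, are printed as the 250 bases before the RefSeq start site, read along the gene. They lie at chr2:14229164-14229413 (+), chr13:37050245-37050494 (-) and chr5:90772185-90772434 (+). Capitals mark matches to GAGGAA on either strand, a core that ETS-family factors such as PU.1, the product of Spi1, can bind.
Mrc1: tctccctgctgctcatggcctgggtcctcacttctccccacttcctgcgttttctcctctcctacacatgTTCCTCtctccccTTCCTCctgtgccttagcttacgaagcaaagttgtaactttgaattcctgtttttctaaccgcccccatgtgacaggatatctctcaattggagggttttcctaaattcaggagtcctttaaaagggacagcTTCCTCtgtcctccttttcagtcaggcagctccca
F13a1: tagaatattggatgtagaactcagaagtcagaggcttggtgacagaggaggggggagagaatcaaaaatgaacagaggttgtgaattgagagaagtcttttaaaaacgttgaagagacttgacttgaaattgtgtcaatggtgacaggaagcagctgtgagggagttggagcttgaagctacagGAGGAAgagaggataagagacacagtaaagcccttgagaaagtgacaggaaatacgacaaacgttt
Pf4: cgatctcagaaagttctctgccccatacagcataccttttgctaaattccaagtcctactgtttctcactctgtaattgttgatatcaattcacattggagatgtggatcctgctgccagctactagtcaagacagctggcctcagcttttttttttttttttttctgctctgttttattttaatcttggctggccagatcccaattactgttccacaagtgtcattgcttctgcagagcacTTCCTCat
With 50 further bases after the start site, the 7 genes had 10 windows. GAGGAA was found on one strand or the other in 6 of these 10, against 28.3% of all 32851 promoter windows of this length. By gene, 5 of the 7 (Cbr2, F13a1, Mrc1, Ms4a7 and Pf4) held it in at least 1 window. TGCTGA, a core of MAF binding sites, was found in Cbr2 and Folr2 (3 of the 10 windows, against 19.5% of all windows). GAAANNGAA, an interferon response motif, was found in Folr2 and Ms4a7 (3 of the 10 windows, against 8.56%). TTGCNNAA, a C/EBP motif, was found in Pf4 alone of the 7 (1 of the 10 windows, against 10.8%). TTCNNNGAA, the STAT motif, and TATAAA, the TATA box, were in none of them and in 8.3% and 13.6% of all windows. Some genes have more than 1 window and the motifs were searched on both strands, so these are counts of letters and not of bound sites.

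The libraries held 9312788 to 41869997 counts each. Within a group, every pair of libraries differed by more than counting error (the lowest chi-square was 19.3 per degree of freedom over 30 pairs), so none was a repeat of another. Nuclear ribosomal RNA took 61.3% of the counts of Control mouse 2 and 1.13% to 10.5% of the others. Skeletal muscle genes summed to 178 CPM in DSS mouse 2 and to 3.19 to 17.2 CPM in the other 11. Choroid plexus genes were low in Control mice 2 and 5 and DSS mice 3 and 4 (282 to 933 CPM) and summed to 4507 to 9547 CPM in the rest. The labels do not say whether mice of the same replicate number share anything else. The p-values of the group comparison set its difference against the spread between these mice.

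Of the 10 border-associated macrophage genes, Siglec1 and Clec4n rose in DSS mice, 0 fell and 8 were not called, by edgeR's quasi-likelihood test at a Benjamini-Hochberg adjusted p under 0.05 over all tested genes. Siglec1, the sialoadhesin gene, was 1.46-fold higher and Clec4n, the gene of the fungal receptor dectin-2, 1.72-fold higher. Of all tested genes 3.68% rose and 1.26% fell. An unadjusted p under 0.05 was reached by 5 of the 10, all of them higher in DSS mice and 0 lower, against 19.0% of all tested genes. The log2 fold change (DSS over Control) was positive in 9 of the 10 and their median was 0.35, beside -0.022 over all tested genes, of which 45.3% were positive. In none of the 10 did every DSS mouse lie above every control, a separation seen in 2.23% of tested genes. The plot of each gene in each mouse shows these values, and the plot of fold changes sets them beside genes that macrophages in general express.

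**Figure D1:**
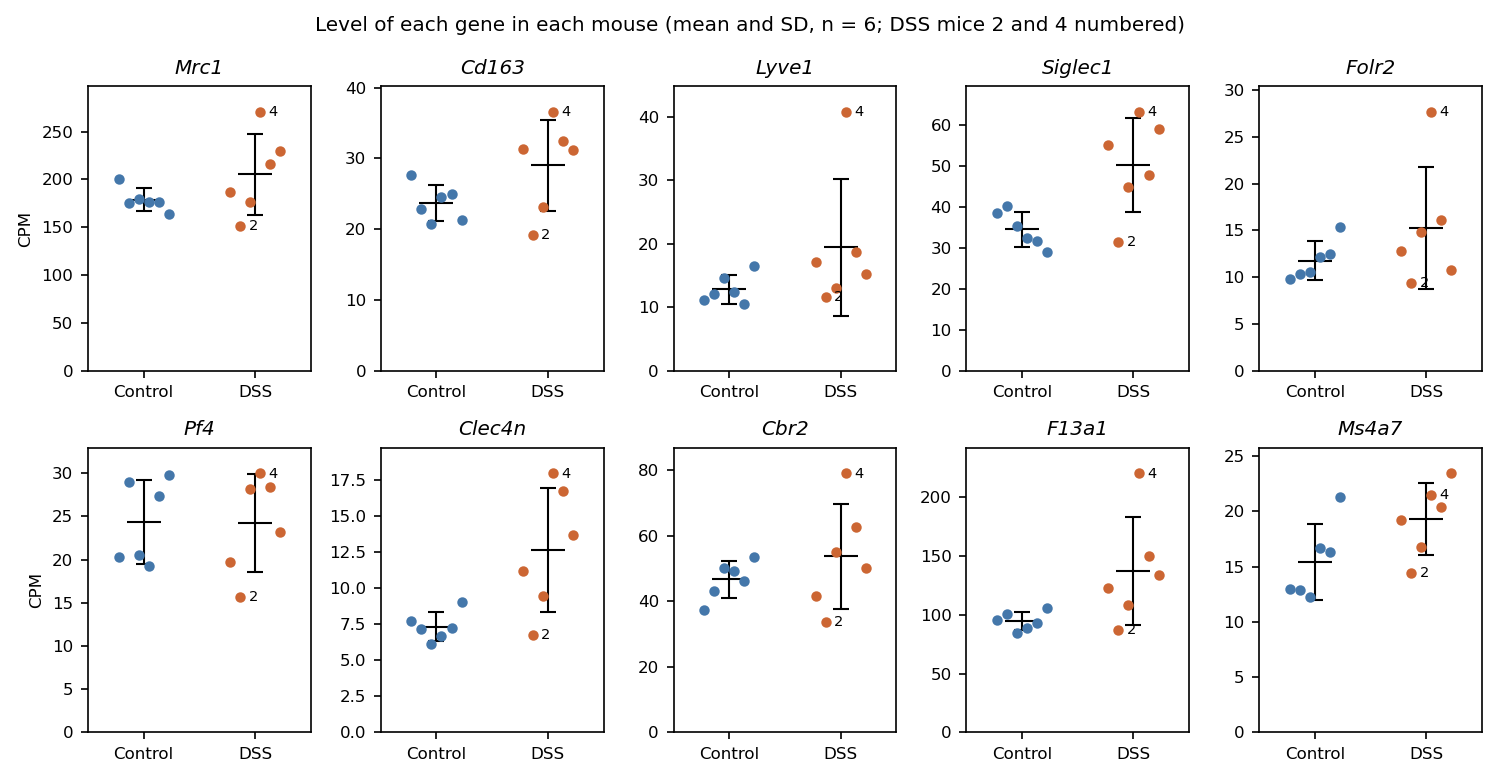
Level of each of the 10 genes in CPM (vertical axes, each from 0) in every Control mouse (blue) and DSS mouse (orange); horizontal lines are the mean and whiskers the SD of 6 mice. DSS mouse 4 is the highest of the 12 mice in 9 panels, and DSS mouse 2 lies among or below the controls in all 10.

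**Figure D2:**
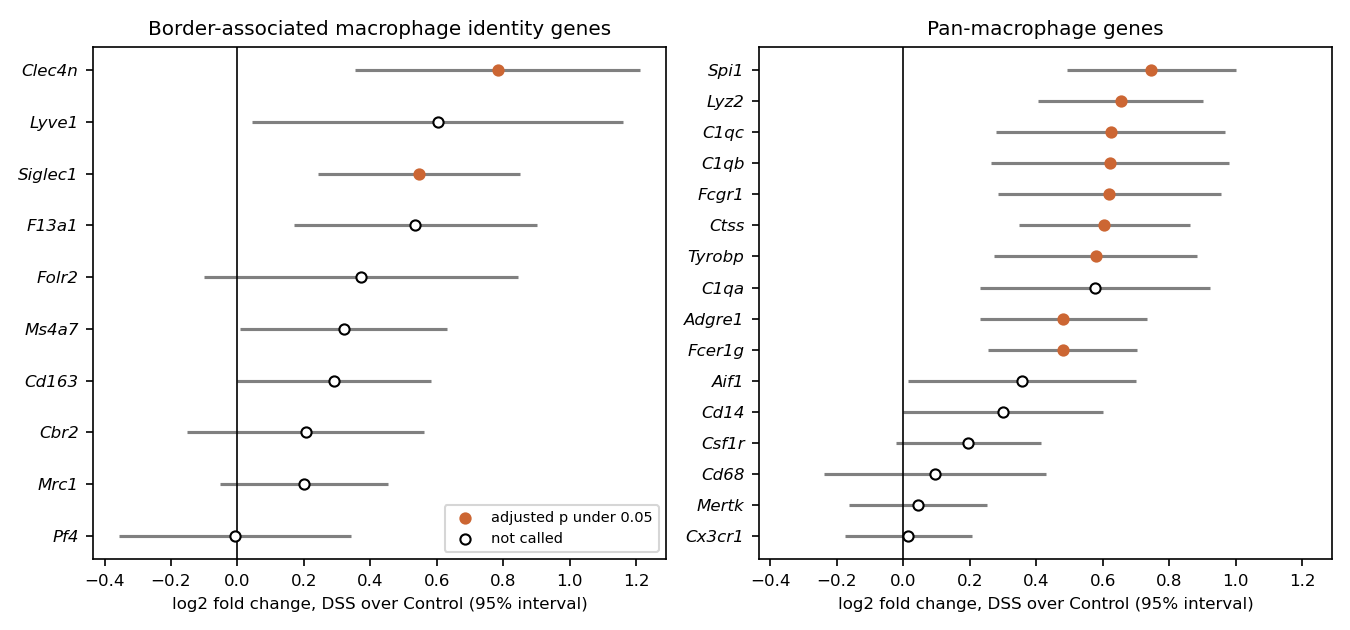
Log2 fold change of DSS over Control with its 95% interval for the 10 border-associated macrophage genes (left) and for 16 genes that macrophages in general express (right); filled orange points have an adjusted p under 0.05. On the left Clec4n and Siglec1 are filled and Pf4 lies at zero, and on the right 9 genes are filled.

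The endocytic receptors come first, since uptake from the surrounding fluid is what these cells are best known for. Mrc1, at chr2:14229392-14332057 (+) in GENCODE M21 on GRCm38, encodes the mannose receptor CD206, which takes up glycoproteins with terminal mannose. Its level was 164, 177 and 201 CPM (lowest, median and highest mouse) in controls and 152, 202 and 271 CPM in DSS mice. Of the DSS mice, 3 lay above all controls and DSS mouse 2 lay below all of them, so the DSS group spanned the whole control range and more. The means were 179 ± 12.0 and 205 ± 42.3 CPM (SD, n = 6), and their difference was 0.20 ± 0.12 on the log2 scale (SE; adjusted p = 0.396). Cd163, at chr6:124304656-124330527 (+), encodes the receptor that clears haemoglobin bound to haptoglobin. It had 20.8, 23.7 and 27.7 CPM in controls and 19.2, 31.2 and 36.6 CPM in DSS mice. Here 4 DSS mice lay above all controls, while DSS mouse 2 was again below all and DSS mouse 3 lay within the control range. This gave a log2 fold change of 0.29 with an SE of 0.14 (adjusted p = 0.264).

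Lyve1, at chr7:110850607-110863239 (-), encodes a hyaluronan receptor shared by perivascular macrophages and lymphatic vessels. Controls had 10.5, 12.3 and 16.5 CPM and DSS mice 11.7, 16.3 and 40.8 CPM. A single animal, DSS mouse 4, set the upper end: the next highest mouse had 18.7 CPM, and 3 DSS mice in all lay above the controls. The difference was 0.60 ± 0.26 on the log2 scale (SE; adjusted p = 0.220), and without DSS mouse 4 it was 0.25. Lymphatic endothelial genes were looked at beside it. Their summed level was 198 to 241 CPM in controls, against 201 to 221 CPM in DSS mice, with 203 CPM in DSS mouse 4. Of these 8 genes 0 rose and 1 fell, Pdpn, which encodes podoplanin (log2 fold change -0.28, adjusted p = 0.0487, a call lost in 10 of the 12 fits that left out 1 mouse), and Prox1, the gene of the factor that specifies lymphatic identity, had 2.65 ± 0.605 CPM in controls and 2.59 ± 0.857 CPM in DSS mice. Folr2, at chr7:101839988-101857194 (-), encodes folate receptor beta, which binds folate on tissue-resident macrophages. Controls had 9.77, 11.4 and 15.4 CPM and DSS mice 9.40, 13.8 and 27.7 CPM. The DSS mice again straddled the controls, with DSS mouse 2 below all of them and DSS mice 4 and 5 above. On the log2 scale the difference was 0.37 ± 0.22 (SE; adjusted p = 0.397) and became 0.12 without DSS mouse 4. Folr2 overlaps the antisense gene Gm10602 and the pseudogene Gm45319, and the strand setting of the authors' counting is not given in the sources used here, so a part of its reads could be theirs.

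Both genes that rose encode cell-surface lectins. Siglec1, at chr2:131069220-131086765 (-), encodes sialoadhesin (CD169), which binds sialic acids on other cells and on virus particles. Its level was 29.1, 33.9 and 40.3 CPM in controls and 31.6, 51.5 and 63.2 CPM in DSS mice. The DSS mice fell into 5 that lay above all controls and DSS mouse 2, which lay in the lower part of the control range. The means were 34.6 ± 4.33 and 50.3 ± 11.4 CPM (SD, n = 6), which is 0.55 ± 0.14 on the log2 scale (SE; adjusted p = 0.0404). Clec4n, at chr6:123229843-123247021 (+), encodes dectin-2, which recognises fungal mannans and signals through the Fc receptor gamma chain. It had 6.11, 7.22 and 9.07 CPM in controls and 6.75, 12.5 and 18.0 CPM in DSS mice. The pattern of mice was that of Siglec1, with 5 DSS mice above all controls and DSS mouse 2 among them. The means were 7.34 ± 1.01 and 12.6 ± 4.31 CPM, which is 0.78 ± 0.20 on the log2 scale (SE; adjusted p = 0.0374).

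Both calls depended on which mice entered the fit and on the test. With all 12 mice, limma-trend on the deposited normalized values called neither gene (adjusted p = 0.0566 for Siglec1 and 0.0575 for Clec4n). The Siglec1 call was lost in 8 of the 12 fits that left out 1 mouse (without Control mouse 3, 4, 5 or 6, or DSS mouse 1, 4, 5 or 6), at adjusted p of 0.0577 to 0.1003, and kept without Control mouse 1 or 2 or DSS mouse 2 or 3. The Clec4n call was lost in 9 (without any 1 of Control mice 1 to 5, or DSS mouse 1, 4, 5 or 6), at adjusted p of 0.0542 to 0.0929, and kept without Control mouse 6 or DSS mouse 2 or 3. Their folds moved little over these 12 fits, from 1.39 to 1.58 for Siglec1 and from 1.58 to 1.89 for Clec4n. Leaving out DSS mouse 2 raised the number of risen genes to 4, adding Cd163 (adjusted p = 0.0450) and F13a1 (adjusted p = 0.0167), with 5.26% of all tested genes risen in that fit. With Control mouse 3, 4 or 5 or DSS mouse 1, 4, 5 or 6 left out, 0 of the 10 were called by edgeR.

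**Figure D3:**
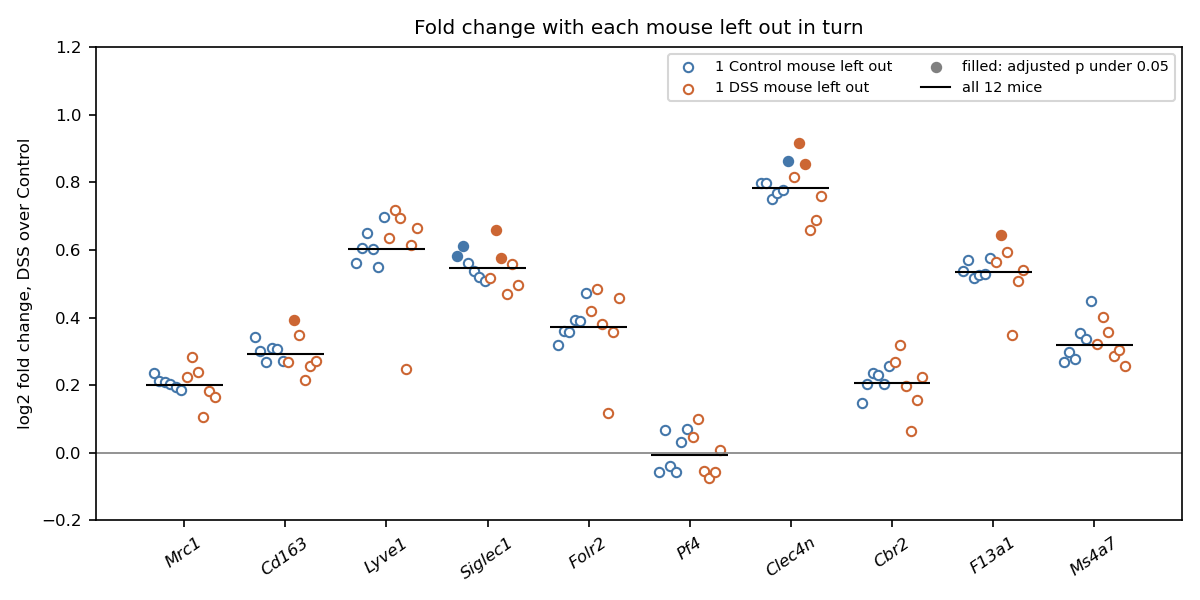
Log2 fold change of each gene (vertical axis) when 1 Control mouse (blue) or 1 DSS mouse (orange) was left out, with the value over all 12 mice as a black line; filled points have an adjusted p under 0.05. Filled points are found for Siglec1 (4), Clec4n (3), Cd163 (1) and F13a1 (1), and the lowest point of Lyve1, Folr2 and F13a1 is the fit without DSS mouse 4.

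Most listed genes of blood-borne phagocytes were also higher in the DSS group, but their sums did not follow Siglec1 and Clec4n from mouse to mouse. The 11 neutrophil genes listed all rose, and their summed level was 67.4 to 196 CPM in controls and 255 to 1363 CPM in DSS mice. Of 12 classical monocyte genes 10 rose, with sums of 533 to 754 CPM in controls and 653 to 950 CPM in DSS mice. Most of these sums was Fn1, which had means of 495 and 483 CPM and was not called (log2 fold change -0.035). The largest log2 fold changes of that list, for Ifitm6 (3.75), Cd177 (3.44) and Hp (3.17), were near the neutrophil list's median of 3.31. That of Ly6c2 was 1.49. The sums are therefore not a measure of monocytes alone. No gene of either list was at 0 in any library. In DSS mouse 2 the sums were 1300 CPM for neutrophil and 908 CPM for monocyte genes; this was the mouse in which Siglec1 and Clec4n were lowest among DSS mice. In DSS mouse 3 the sums were the lowest of the group (255 and 653 CPM). The part of these cells in the rise of Siglec1 and Clec4n was not tested.

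Several signalling partners of dectin-2 were higher too. Of 9 other genes of that pathway, 6 rose and 0 fell. They were Clec4e and Clec4d, which encode the related receptors Mincle and MCL, Syk, the kinase that receives their signal, Card9, the adaptor below it, Fcer1g, the Fc receptor gamma chain, and Plcg2, a phospholipase. Clec4e rose 7.39-fold from 0.260 ± 0.0936 to 2.02 ± 0.983 CPM (SD, n = 6) and Card9 1.78-fold from 4.67 ± 0.769 to 8.33 ± 1.13 CPM. With any single mouse left out, 6 of the 9 rose. Clec4n lies in a cluster of C-type lectin receptor genes, and of the 6 other tested genes of that cluster 5 rose (Clec4a1, Clec4a2, Clec4a3, Clec4d and Clec4e), and 4 or 5 did with any 1 mouse left out. Their coding sequences are alike, so reads may have been split among them. In the Siglec family, 2 of 7 tested genes other than Siglec1 rose and 1 fell. Siglece and Cd33, inhibitory receptors of myeloid cells, rose 1.84-fold and 1.34-fold, and Siglec15, an osteoclast gene, fell by 1.65 on the log2 scale, from 1.14 ± 0.341 to 0.370 ± 0.190 CPM. The Siglec15 call was kept with each mouse left out in turn, while those of Siglece and Cd33 were lost in 5 and 8 of the 12 fits.

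Type I interferon induces Siglec1 in many macrophages, and of 15 genes of that response 5 rose and 0 fell (3 to 6 rose with 1 mouse left out). Zbp1, a sensor of nucleic acids, rose 1.98-fold and Irf7, a transcription factor of the response, 1.55-fold. Their median log2 fold change was 0.44, beside 0.55 for Siglec1. Whether interferon had a part in the rise of Siglec1 was not tested.

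Pf4 was the 1 gene of the 10 with a fold change below zero. It lies at chr5:90772435-90773383 (+) and encodes the chemokine CXCL4, which platelets release and which these macrophages transcribe. Controls had 19.3, 23.9 and 29.7 CPM and DSS mice 15.7, 25.7 and 30.0 CPM. The groups covered nearly the same range, with DSS mouse 4 at the top and DSS mouse 2 at the bottom of all 12. Its log2 fold change was -0.0064 ± 0.16 (SE), with a 95% interval from -0.36 to 0.34 and an adjusted p of 0.993, and its sign depended on the setting. Of 11 megakaryocyte and platelet genes 6 passed the filter, and 1 of them changed: Itgb3, an integrin gene that osteoclasts also express, fell by 0.68 on the log2 scale, a call lost in 9 of the 12 fits that left out 1 mouse. Ppbp, a platelet chemokine gene of the same family as Pf4, had 1.12 ± 0.627 CPM in controls and 1.75 ± 0.379 CPM in DSS mice, and Gp6 and Treml1 were at 0 in at least 1 control. Together the 11 genes, Itgb3 included, summed to 28.6 to 45.8 CPM in controls, with DSS mice at 26.4 to 35.6 CPM. Of the 6 tested, however, 4 had a positive log2 fold change, and their median over all 6 was 0.38. Of 6 tested genes of related chemokines and their receptors, Ccr1 rose 1.85-fold, and Cxcr3, the receptor through which CXCL4 acts on lymphocytes, had a log2 fold change of 0.46 (adjusted p = 0.207). All 6 had a positive log2 fold change, with a median of 0.59. Of them 5 were higher at an unadjusted p under 0.05, and edgeR and DESeq2 each called 1.

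F13a1, at chr13:36867178-37050244 (-), encodes the A chain of coagulation factor XIII, the transglutaminase that cross-links fibrin. It had 84.8, 94.1 and 105 CPM in controls and 87.3, 128 and 220.0 CPM in DSS mice. As for the lectins, 5 DSS mice lay above all controls and DSS mouse 2 lay among them. The means were 94.5 ± 7.54 and 137 ± 46.0 CPM, a log2 fold change of 0.53 ± 0.17 (SE), which missed the threshold (adjusted p = 0.0893). The fold change was 0.35 without DSS mouse 4. F13a1 overlaps the antisense genes Gm49144 and Gm30489. Of 8 tested genes of clot formation and removal, Plaur, the urokinase receptor gene, and Tgm2, a tissue transglutaminase gene, rose 2.39-fold and 1.38-fold. Plat, the gene of tissue plasminogen activator, and F3, the tissue factor gene, fell by 0.53 and 0.32 on the log2 scale, and the F3 call was lost in 8 of the 12 fits that left out a mouse.

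The last pair are markers whose roles in these cells are less settled. Cbr2, at chr11:120729489-120732114 (-), encodes a carbonyl reductase. Controls had 37.5, 47.8 and 53.6 CPM and DSS mice 33.8, 52.6 and 79.0 CPM. The DSS group reached beyond the controls at both ends, with 3 mice above and DSS mouse 2 below. The difference of 0.21 ± 0.17 (log2, SE) was not called (adjusted p = 0.567). Ms4a7, at chr19:11321039-11336146 (-), encodes a membrane protein with 4 membrane-spanning segments that separates macrophages of the brain's borders from microglia. It had 12.2, 14.6 and 21.3 CPM in controls and 14.4, 19.8 and 23.4 CPM in DSS mice. The highest control, mouse 6, lay above 4 of the 6 DSS mice, and 3 controls lay below all DSS mice. The difference was 0.32 ± 0.15 on the log2 scale (SE; adjusted p = 0.251). Of 12 other tested Ms4a genes 7 rose (3 to 8 with 1 mouse left out), with a median log2 fold change of 0.82. Among them, Ms4a3, a gene of granulocyte and monocyte precursors, rose 12.0-fold from 0.301 ± 0.141 CPM, and Ms4a6c and Ms4a6d, expressed by monocytes and macrophages, rose 1.84-fold and 2.12-fold. The Ms4a4 and Ms4a6 genes are near copies of each other and may share reads.

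Fewer calls were made among other relatives of the receptors. The mannose receptor family had 0 of 3 further genes called by edgeR (1 at an unadjusted p under 0.05, and 1 called by DESeq2), with log2 fold changes of 0.035 for Mrc2, 0.16 for Pla2r1 and 0.85 for Ly75 (adjusted p = 0.0988). Of 7 tested scavenger receptor genes other than Cd163, 0 rose (2 were higher at an unadjusted p under 0.05, and DESeq2 called 0) and Cd36, a receptor for oxidised lipids, fell by 0.47 on the log2 scale, from 37.8 ± 4.56 to 27.3 ± 1.73 CPM. Stab1, which encodes stabilin 1 of the same macrophages, had 273 ± 31.2 and 333 ± 60.7 CPM (adjusted p = 0.198). Of 11 genes that handle haemoglobin and iron, Hp, the gene of the haptoglobin whose complexes CD163 clears, rose 9.01-fold from 2.85 ± 0.762 to 25.0 ± 9.66 CPM. It was the 1 gene of that list that was called. Of 8 tested hyaluronan genes other than Lyve1, Hmmr rose 2.23-fold, a call lost in 10 of the 12 fits that left out a mouse, and Cd44, the main hyaluronan receptor of leukocytes, had a log2 fold change of 0.27 (adjusted p = 0.102). Of 5 folate receptor and transport genes 0 were called by edgeR, 0 had an unadjusted p under 0.05 and 0 were called by DESeq2. Folr1, the folate receptor gene of the choroid plexus and itself one of the choroid plexus genes above, varied from 1.35 to 47.7 CPM over the 12 mice.

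Of 22 further genes linked to border-associated macrophages 4 rose and 0 fell, with a median log2 fold change of 0.28. Ccl8, a chemokine gene, rose 3.90-fold from 11.7 ± 1.66 to 45.6 ± 20.6 CPM. Ms4a6c and Wfdc17 rose 1.84-fold and 1.77-fold. The other 18 were not called, among them the abundant genes Apoe and Gas6 (log2 fold changes 0.16 and 0.10). The Wfdc17 call was lost in 9 of the 12 fits that left out a mouse and those of Ccl8 and Ms4a6c in none. Of 16 genes that macrophages in general express, 9 rose and 0 fell, with a median log2 fold change of 0.53. Spi1, which encodes PU.1, rose 1.68-fold from 16.3 ± 1.52 to 27.3 ± 5.22 CPM, and Lyz2, the lysozyme gene of myeloid cells, 1.57-fold. Csf1r, the receptor on which resident macrophages depend, had 224 ± 16.9 CPM in controls and 256 ± 38.7 CPM in DSS mice (log2 fold change 0.20, adjusted p = 0.323). Without 1 mouse, between 4 and 13 of the 16 rose. Of 10 genes of MHC class II-high macrophages 4 rose, including Ccr2 (1.55-fold), which the monocyte list also holds, and the class II regulator Ciita (1.69-fold), and between 2 and 8 rose with 1 mouse left out. Of 8 tested microglia genes 0 rose by edgeR or DESeq2, and 0 were higher at an unadjusted p under 0.05. Of 10 tested genes of macrophage growth factors and their receptors 4 rose (Csf2ra, Csf2rb, Il10ra and Tgfb1; 4 to 6 with 1 mouse left out), while the ligand gene Csf1 had a log2 fold change of 0.15 (adjusted p = 0.510). Of 15 macrophage transcription factor genes 3 rose, Spi1 and Cebpb among them (2 to 6 rose with 1 mouse left out), and Maf, which is prominent in perivascular macrophages, had 82.3 ± 10.5 and 86.7 ± 5.53 CPM. Osteoclasts arise from the same lineage and are present in bone beside the membranes; of 7 tested osteoclast genes 6 fell (3 to 7 with 1 mouse left out), and their summed level was 354 to 564 CPM in controls and 193 to 357 CPM in DSS mice.

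The 10 genes were also set against the general macrophage genes in the same mouse. Those 16 genes had a mean log2 CPM of 5.62 ± 0.13 (SD) in controls, and DSS mice averaged 6.04 ± 0.28, a difference of 0.42. Relative to this mean, Pf4 was 0.44 lower in DSS mice, with 4 of them below every control, Cbr2 0.26 lower and Mrc1 0.24 lower, each with 3 below every control. Clec4n stood 0.30 higher, with 3 DSS mice above every control. Siglec1, which had risen in CPM, differed by 0.097 on this scale, and F13a1, Lyve1, Ms4a7, Folr2 and Cd163 by between -0.15 and 0.059. The general genes include several that monocytes and neutrophils also express, such as Lyz2 and Spi1, so this scale describes proportion among transcripts. It was not given a test.

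**Figure D4:**
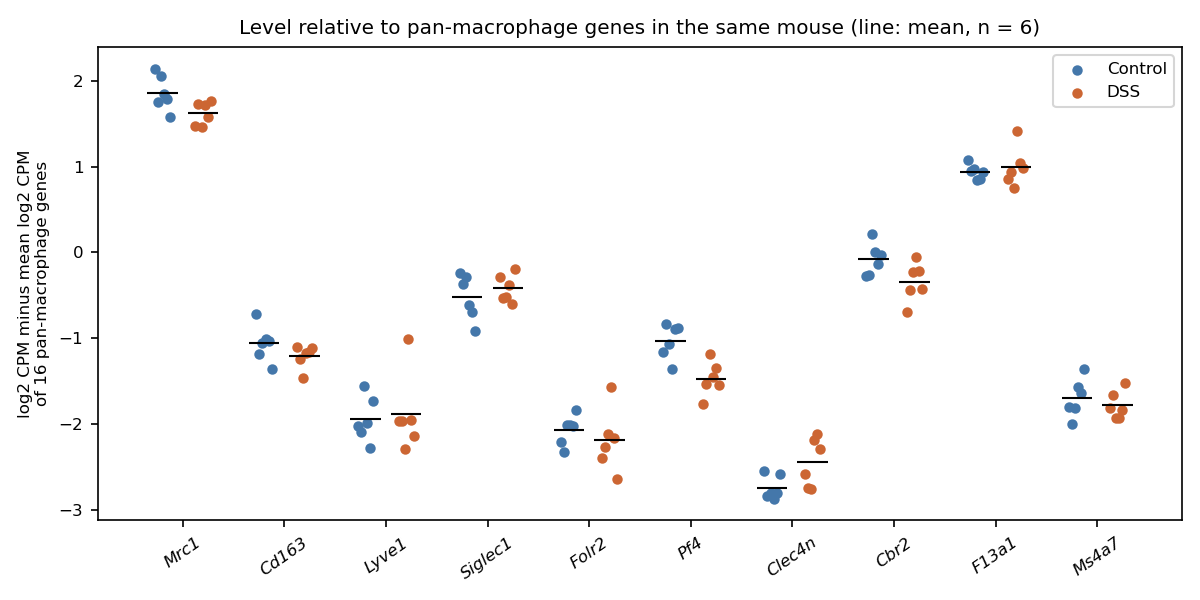
Log2 CPM of each gene minus the mean log2 CPM of 16 general macrophage genes in the same mouse (vertical axis), for Control (blue) and DSS (orange) mice, with the mean of 6 mice as a line. The means of Pf4, Cbr2 and Mrc1 sit lower in DSS mice and that of Clec4n higher, and the groups overlap for every gene.

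Per kilobase of exon, the order of the 10 genes by mean level was the same in both groups. Cbr2 stood first (35.2 ± 4.31 CPM per kb in controls), then Pf4 (33.8 ± 6.70), Mrc1 (28.1 ± 1.88), F13a1 (14.0 ± 1.12) and Folr2 (7.63 ± 1.33). Clec4n (5.17 ± 0.713), Siglec1 (4.84 ± 0.607), Lyve1 (4.41 ± 0.777), Cd163 (4.34 ± 0.471) and Ms4a7 (3.46 ± 0.778) formed the lower end. The steps from Mrc1 to F13a1 and from F13a1 to Folr2 held in all 12 libraries. The neighbours Cbr2 and Pf4 kept their order in 9 libraries, Pf4 and Mrc1 in 6, Siglec1 and Lyve1 in 9, and Lyve1 and Cd163 in 7, so these were not separated beyond the spread between mice. Clec4n stood above Siglec1 in all 6 DSS mice and in 4 controls.

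Levels of the 10 genes were spread more widely among DSS mice than among controls. The sum of the 10 genes was 435 to 466 CPM in controls and 382 to 807 CPM in DSS mice. The SD of log2 CPM was larger in DSS mice for 9 of the 10, the exception being Ms4a7, whereas it was larger in DSS mice for 52.9% of the 9383 tested genes in the same range of level. The SD of F13a1 was 0.11 in controls against 0.45 in DSS mice, and that of Mrc1 0.094 against 0.30. DSS mouse 4 was the highest library in 9 of the 10, against 13.1% of genes at like level, and DSS mouse 2 the lowest in 5, against 19.2%. Beside its DSS group's median, DSS mouse 4 had 2.51 times as much Lyve1, 2.00 times as much Folr2 and 1.72 times as much F13a1, but 1.17 times as much Cd163 and Pf4 and 1.23 times as much Siglec1. It had the highest mean log2 CPM of general macrophage genes as well (6.36), and DSS mouse 2 had the lowest of the DSS mice (5.51). DSS mouse 4 had few choroid plexus counts and DSS mouse 2 many muscle counts; the part of either in these levels was not tested. With the muscle score as a covariate, the group difference on the log2 scale was 0.46 for Siglec1 and 0.66 for Clec4n, against 0.55 and 0.78 without it, and with the choroid plexus score, a covariate added after seeing the data, it was 0.55 and 0.78. Both genes were called in either fit. Without DSS mice 2 and 4, the SD was larger in DSS mice for 6 of the 10, against 39.6% of genes at like level.

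Pairs of the 10 genes were positively correlated across DSS mice, and had mixed signs across controls. Over the 6 DSS mice, Pearson's r of log2 CPM was positive in all 45 pairs of genes, with a median of 0.81. The highest r was that of Mrc1 with F13a1 (r = 0.960, exact permutation p = 0.00417; Spearman's rho = 0.943, exact p = 0.0167), followed by Lyve1 with F13a1 (r = 0.953, exact permutation p = 0.00417; rho = 0.943, exact p = 0.0167). Next came Pf4 with Cbr2 (r = 0.949, exact permutation p = 0.00139, the smallest that 720 orders allow; rho = 1, exact p = 0.00278). These 3 had r of 0.840, 0.823 and 0.810 without the 2 mice farthest from the median of the pair's first-named gene. The other gene of a pair played no part in choosing these mice. Over all pairs the median r dropped to 0.46 in this way and 37 remained positive. Over the 6 controls 24 pairs were positive and 21 negative, with a median r of 0.090, and without the 2 farthest mice 16 were positive and the median r was -0.30. Siglec1 ran opposite to Folr2 in controls (r = -0.936, exact permutation p = 0.00694; rho = -0.943, exact p = 0.0167; r = -0.994 without the 2 farthest) and beside it in DSS mice (r = 0.592, exact p = 0.221). Clec4n and F13a1 stayed close in both groups (r = 0.912 in controls, 0.612 without the 2 farthest mice, and 0.932 and 0.995 in DSS mice). Other pairs had high r in controls and DSS mice too, such as Folr2 with Cbr2 (0.770 and 0.908) and Mrc1 with Cd163 (0.736 and 0.907). Without the 2 farthest mice, the r of these 2 pairs in controls was 0.291 and -0.638. Of all 90 correlations, 30 had an exact p under 0.05 (24 in DSS mice and 6 in controls) but 0 passed adjustment (lowest adjusted p = 0.0833). The 2 groups' correlations were not tested against each other, and genes of 1 library share its depth and its makeup of tissue.

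**Figure D5:**
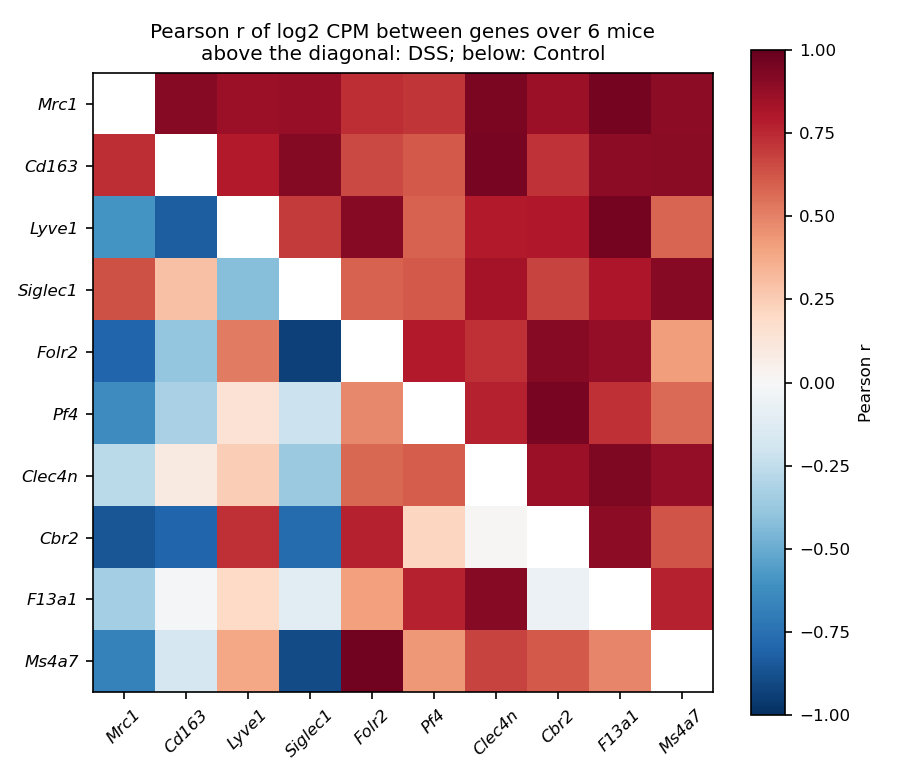
Pearson's r of log2 CPM between each pair of the 10 genes over 6 mice, for DSS mice above the diagonal and Control mice below it, on a colour scale from -1 (blue) to 1 (red). All 45 squares above the diagonal are red, from 0.42 to 0.96, while those below run from -0.94 to 0.97.

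Genes outside the set with the most similar pattern were ranked by r of log2 CPM, centred on each group's mean, over the 12 libraries and among 13108 genes. Nearest to Mrc1 were Egfr (r = 0.956), Nedd4 (0.938) and Ttc37 (0.927). Nearest to Siglec1 were Gpr35 (0.908), Tnfrsf10b (0.907), Siah2 (0.900) and Zfp275 (0.898), and nearest to Clec4n were Ccl9 (0.956), Rnf130 (0.951), Cpa3 (0.946) and Rpn2 (0.942). Of the genes named here, Gpr35 and Ccl9 rose in DSS mice (log2 fold changes 0.90 and 1.13) and the others were not called. These values are descriptions of the largest of many correlations and carry no test.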

How the data were processed

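Meningeal RNA of 12 mice had been extracted with RNeasy Plus Micro and made into TruSeq stranded total RNA libraries, per the labels. Per the submitters' processing notes, CASAVA, FastQC, Trim Galore, HISAT2 and featureCounts were used with mm10; for versions, annotation and strand setting: not given in the sources used here. The authors deposited whole-number counts per gene symbol, and a normalized signal in which each deposited column equals the counts divided by 1 factor, the median-of-ratios size factor. Columns of no sample numbered 0.

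The counts were tested with edgeR 4.0.16 in R 4.3.3: filterByExpr (minimum count 10, minimum total 15), TMM, quasi-likelihood F-test of DSS against Control, two-sided, Benjamini-Hochberg over 18593 genes. An SE is the size of the log2 fold change divided by the root of its F statistic, and intervals are at 95%. CPM uses TMM library sizes, log2 CPM a prior count of 2. Positions and exon lengths are from GENCODE M21 on GRCm38, which held 94.8% of the symbols. Depth limits the counting error, while the errors given for comparisons come from differences between mice. The steps were tested on simulated data. The 10 genes and the 31 further lists were chosen with earlier results of these data known. Named outside the 10 were up to 4 called genes and 3 abundant genes of each list, the 4 most similar genes, and Col1a1, Dcn, Epcam and Vil1. A few genes that this rule picks are not reported here. Cdx2, Prox1, Cxcr3, Ly75, the megakaryocyte genes at 0 and the genes that complete a count were named after their values were seen. Alternatives were DESeq2 1.42.0, DESeq2 size factors, limma 3.58.1 (voom with quality weights, and trend on log2 of the deposited signal with a pseudocount of 1), other filters, ribosomal RNA left out, a replicate block, a muscle covariate, mice left out and an adjusted p under 0.1. A choroid plexus covariate and leaving out DSS mice 2 and 4 together were added after seeing the data.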

Additional observations from a re-analysis of the deposited data

Results flagged for a closer look

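Lyve1 in DSS mouse 4 stood apart from its group. Its log2 CPM was 5.35, the nearest DSS mouse had 4.23 and the lowest 3.56, so that the gap took up 0.626 of the group's range, just over the critical value of 0.625 of Dixon's test for 6 mice. Each of the 10 genes was checked in both groups, which makes 20 checks, and chance flags about 1 in 20. In the same mouse Folr2 was 27.7 CPM and F13a1 220.0 CPM, each the highest of the 12 mice.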

How the results depend on the processing

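Of the 10 genes 2 rose over all mice; leaving out 1 mouse gave between 0 and 4, limma-trend on the deposited signal gave 0 and the replicate block gave 0, where Siglec1 had an adjusted p of 0.120 and Clec4n 0.0579. The labels do not say whether same-numbered mice share more than the number. Correlations of same-numbered mice ran from -0.19 to 0.15, and 1 of 12 libraries correlated best with its own number. These values do not settle whether the mice were paired. With the replicate block 708 genes were called in all. DESeq2, limma-voom, an adjusted p under 0.1, leaving out both mice numbered 2, and leaving out DSS mice 2 and 4 (added after seeing the data) each called F13a1 besides these 2. No gene of the 10 fell in any setting run. The count of all called genes, 919, became 1554 with DESeq2, 1641 at an adjusted p under 0.1, and 538 to 1379 with 1 mouse left out. Pf4, at -0.0064, turned positive with DESeq2 size factors (0.0041), DESeq2 (0.0027), limma-voom (0.039), both mice numbered 2 left out (0.15), a choroid plexus covariate (0.0050), DSS mice 2 and 4 left out (0.041), and in 6 fits without 1 mouse (0.0070 to 0.10), and ranged from -0.075 to 0.10 over the 12 such fits; its adjusted p was 0.621 or more throughout. The other 9 genes kept a positive fold change in all 24 settings. The cause of these shifts was not tested. Depth bears most on Clec4n, which had the fewest counts of the 10 (68 to 478 per library).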

Other observations

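Beyond the macrophage and phagocyte genes, 7 of 8 cell cycle genes rose in DSS mice and 0 fell, their median being 1.29 on the log2 scale; 4 to 8 rose with any 1 mouse left out. Of 10 glucocorticoid response genes Cdkn1a, a cell cycle inhibitor gene, rose (log2 fold change 0.37, edgeR adjusted p = 0.0281), a call lost without Control mouse 3, DSS mouse 4 or DSS mouse 5. Of 10 dendritic cell genes Batf3, a transcription factor gene, rose, a call lost in 10 of the 12 fits that left out 1 mouse. Of 8 fibroblast genes edgeR called 0, with 1 higher and 3 lower at an unadjusted p under 0.05, and DESeq2 called 1 in each direction. Of 8 blood endothelial genes edgeR and DESeq2 each called 0, and 2 were higher at an unadjusted p under 0.05.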
